A study of Mus musculus with 8 samples.

Results

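Solute carriers are the membrane proteins that move amino acids, sugars, nucleosides, ions, metals, vitamins and lipids across the plasma membrane and the membranes of mitochondria, Golgi and lysosomes. The genes described here are those whose symbol begins with Slc and a family number. A probe set, the group of short probes that reads a transcript on the array, was included when the array's annotation gave it exactly 1 such symbol and its mean signal over the 8 arrays was at least 200. Of 185 Slc probe sets for 151 genes, 84 probe sets met this rule. They stand for 75 of the 4670 genes that were tested, and are 84 of the 6007 probe sets, of 12422 that are not controls, that reached the same mean. The other 101 Slc probe sets were below it, and 76 genes had probe sets only there. The members were thus chosen by their mean signal over all 8 arrays, and not by the difference between the groups. A gene with more than 1 probe set is stood for by its brightest.

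The samples were mouse aortic endothelial cells, from which total RNA was prepared. The series has 4 arrays of mature confluent monolayers and 4 of subconfluent cultures at less than 50% confluency, with equal cell numbers taken for each sample and experiments numbered 1 to 4 in each group. Both groups carried no other treatment or allele in the labels. The labels do not give the strain, the animals' age, the passage, or whether the cells were a primary culture or a line. Each sample was read on a 1-colour Affymetrix mouse array, and the values are signals in array units, scaled by the authors to a target of 500 per array. Whether the experiments were separate cell isolations is not stated, so the p-values measure the spread between these arrays.

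A transporter sets which nutrients a cell can take up, and many work in pairs or chains. Slc7a5, the large neutral amino acid exchanger, reaches the membrane bound to the heavy chain Slc3a2 and exchanges amino acids that carriers such as Slc38a2 and Slc1a5 concentrate in the cell. Carriers of the Slc25 family connect the mitochondrial matrix with the cytosol. In endothelial cells the equilibrative nucleoside carrier Slc29a1 is known for clearing adenosine, and the glucose carrier Slc2a1 for supplying glycolysis.

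The median signal of an array was between 169 and 187, and the scale factor that the labels give ran from 3.56 to 8.99 in the confluent group and from 3.05 to 13.3 in the subconfluent group. Of 18 endothelial marker genes on the array, 2 reached a mean of 200, Eng at 832 and Procr at 255. Pecam1 had a mean signal of 111, Kdr 92.0, Vwf 23.3, Cdh5 13.0 and Tek 11.2, so these defining markers of the labelled cell type were low. The summed signal of the 18 was 1872 to 2466 in confluent and 1999 to 2474 in subconfluent arrays. Of 16 fibroblast and pericyte markers 10 reached the mean of 200. The summed signal of the 16 was 55616 to 81471 in confluent arrays and 27135 to 40975 in subconfluent arrays. Of the 10, 4 fell (Col1a2, Col3a1, Lum and Dcn, limma adjusted p under 0.05), where 4.06% of all probe sets tested did. The others did not pass and did not share a direction. Prrx1 was at 0.30 on the log2 scale, Fbln1 at 0.14, Twist1 at -0.06, Col1a1 at -0.39, Thy1 at -0.69 and Pdgfra at -1.09. Of other cell types, 3 of 7 smooth muscle markers, 2 of 9 epithelial and mesothelial, 1 of 10 macrophage (Cd14) and 1 of 5 adipocyte markers (Lep) reached that mean, and 0 of the lymphocyte and red blood cell markers did. The summed macrophage signal was 2518 to 3889 in confluent and 1807 to 2376 in subconfluent arrays, and that of smooth muscle 1784 to 3782 and 1926 to 10499. The difference in summed fibroblast marker signal runs along with every comparison below, and its part in them was not tested. In these bulk samples fewer cells of a type and less RNA per cell cannot be told apart.

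Among the 84 Slc probe sets, the limma fit called 2 higher and 1 lower in the subconfluent group (adjusted p under 0.05). That is 3.57%, against 6.81% of all 6007 probe sets tested, 2.75% higher and 4.06% lower. With the experiment number as a block, 9 Slc probe sets were higher and 13 lower, or 26.2%, against 21.2% of all probe sets, 9.94% higher and 11.3% lower. A block for the chip lot called 4 Slc probe sets higher and 5 lower, 10.7%, against 11.4% of all, 6.13% higher and 5.24% lower. Lot B held only confluent experiments 2 and 4, and lot D only subconfluent experiment 2. The differences with lot as a block, here and below, therefore rest on the arrays of lots A and C. At an unadjusted p under 0.05 there were 11 higher and 12 lower, where all probe sets gave 25.9%. Without the signal minimum 1 of the 84 was called, Slc20a1, against 1.67% of all 12422, 0.58% higher and 1.09% lower. Samples with the same number did deviate together, so the blocked value is given wherever it changes the call. Both shares lay near those of the whole array, so the counts alone are not a result about solute carriers. The median log2 difference of the 75 genes was -0.02, their median absolute difference 0.24, and their range -1.45 to 1.68. Differences of less than 0.5 in either direction were measured for 53 of the 75. The difference was positive for 32 genes and negative for 43; over the 84 probe sets 41.7% were positive, against 51.2% of all. In all 4 experiments 12 genes were higher in the subconfluent sample and 21 lower, where 972 and 1101 of all 4670 genes tested were. The groups did not overlap for 13 of the 84 probe sets, 15.5%, against 16.9% of all; 7 lay above (8.34% of all) and 6 below (8.54% of all).

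**Figure D1:**
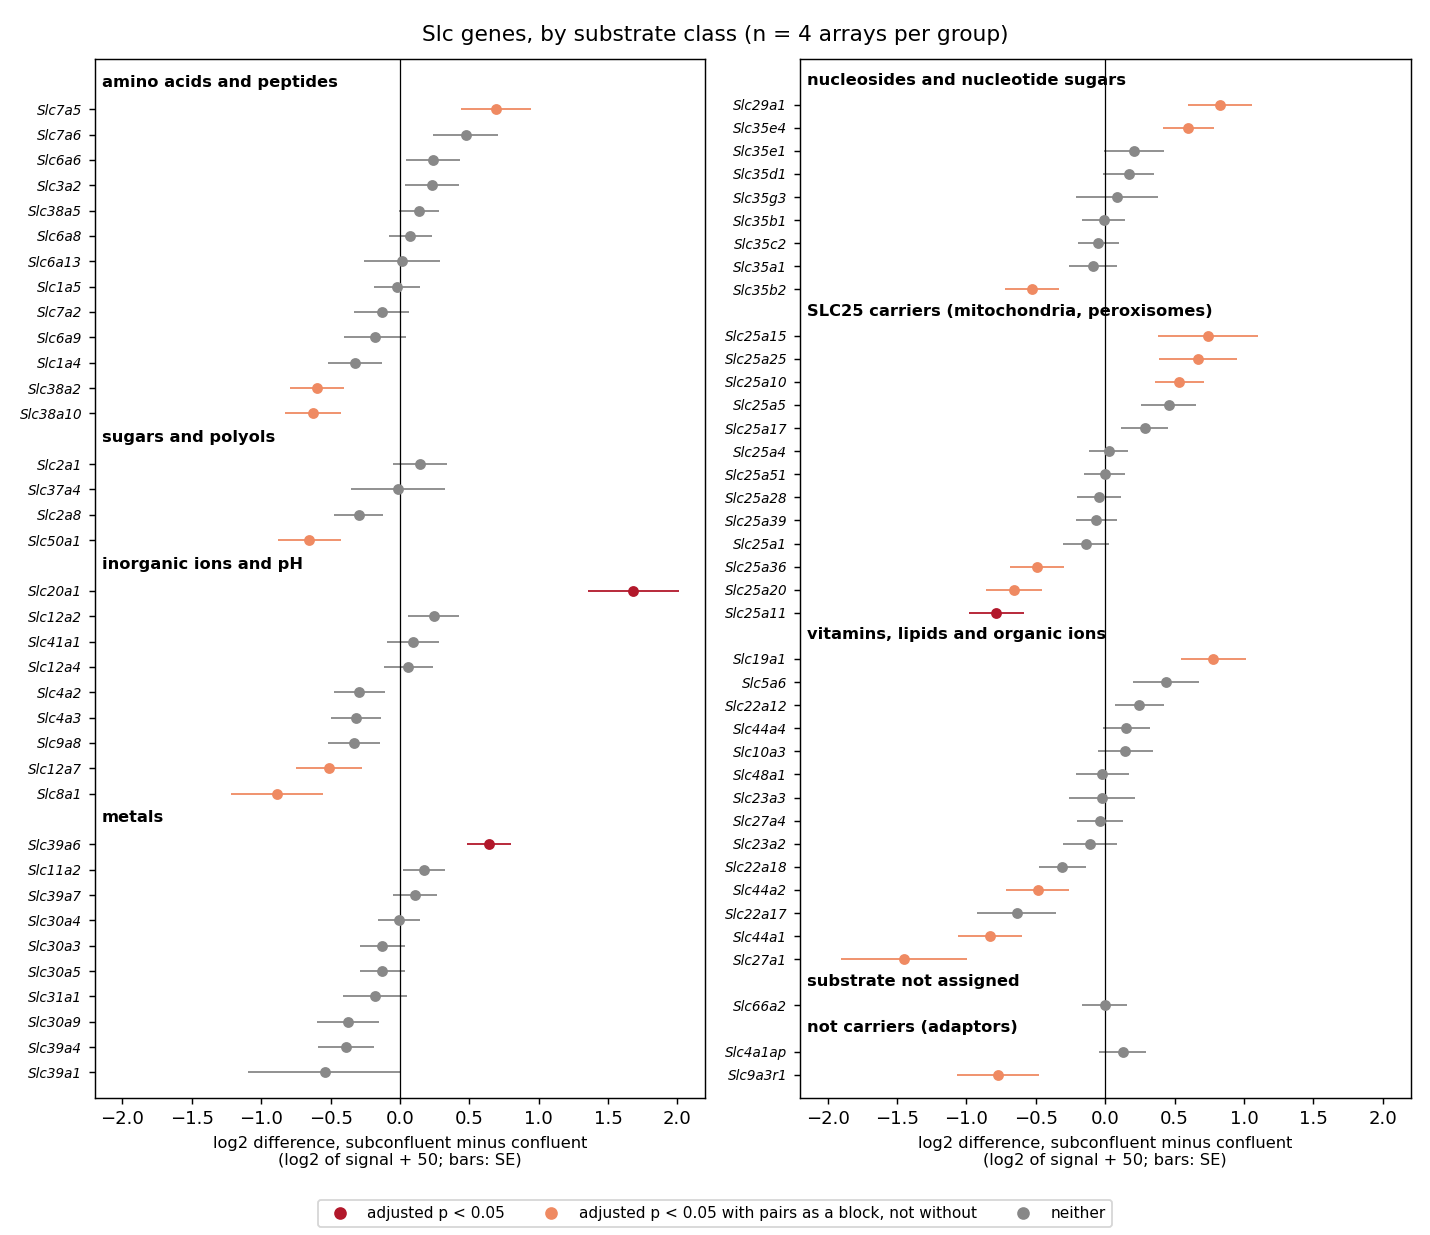
Log2 difference between subconfluent and confluent cells for the 75 Slc genes, by substrate class, on the scale of log2(signal + 50); points are the limma estimates from 4 arrays per group and bars their standard errors. Slc20a1 at 1.68 and Slc27a1 at -1.45 are the ends of the range, and most genes lie within 0.5 of 0.

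The genes that passed the threshold without the block were 3: the phosphate importer Slc20a1 and the zinc importer Slc39a6, both higher in subconfluent cells, and the mitochondrial 2-oxoglutarate carrier Slc25a11, which was lower. Slc20a1 (Entrez gene 20515) encodes PiT-1, which brings phosphate into cells together with sodium. Its signals in confluent experiments 1 to 4 were 36.4, 205, 167 and 217, and those in the subconfluent ones were 498, 691, 468 and 591. Every subconfluent array was above every confluent array, and confluent experiment 1 was far below the other 3 of its group. The group means were 156 ± 82.8 (SD, n = 4) and 562 ± 101 (SD, n = 4). On the log2(signal + 50) scale Slc20a1 rose by 1.68 (SE 0.33, 3.20-fold, limma adjusted p = 0.0181). By experiment the log2 differences of Slc20a1 were 2.67, 1.54, 1.25 and 1.26. Within chip lot A, which held experiment 1 of both groups, it was 2.67, and within lot C, which held confluent 3 and subconfluent 3 and 4, it was 1.41; with lot as a block the limma adjusted p was 0.0126. Leaving out subconfluent experiment 2 or 4 ended the call (limma adjusted p = 0.0538 and 0.0517), with log2 differences between 1.30 and 1.85 over the 8 omissions. The confluent mean of Slc20a1 was itself under 200, so it entered the tested set through its subconfluent level.

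A start of the Slc20a1 gene is shown because this was the Slc gene with the largest positive difference. Shown are the 250 bases before 1 of its 2 transcript starts, from RefSeq on the mouse build GRCm38.p6 (chr2:129198523-129198772, plus strand). They hold the letters CACGTG at 175 and at 22 bases upstream, marked in capitals.
Slc20a1: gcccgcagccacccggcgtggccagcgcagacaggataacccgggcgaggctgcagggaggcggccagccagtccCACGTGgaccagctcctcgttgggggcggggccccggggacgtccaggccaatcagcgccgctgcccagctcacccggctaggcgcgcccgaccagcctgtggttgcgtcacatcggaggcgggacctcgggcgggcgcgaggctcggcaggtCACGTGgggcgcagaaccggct
CACGTG is the E-box that MYC-family and related factors can bind, and it reads the same on both strands. It was present in the windows (250 bases before to 50 after a start) of 9 of the 62 Slc genes with an entry in the promoter table, 14.5%, against 8.09% of all 27025 genes in that table. Of the genes that were higher with the block 7 had an entry and 3 of these held it, which were Slc20a1, Slc25a15 and Slc29a1. Of the genes that were lower 13 had an entry and 3 held it, which were Slc12a7, Slc25a36 and Slc27a1. The sequences of these 3 are not printed. The other patterns searched were split by direction too: TGACNNNGC was in 5 of the 7 and 3 of the 13, GGAATG in 4 and 3, TGATGNAA in 0 and 1, and TGANTCA in 0 and 2. The 30 bases around the match are given for the other 2 genes that were higher, at chr8:22398340-22398369 and chr17:45595307-45595336, both on the minus strand. Slc20a1 and Slc25a15 each hold CACGTG in 1 of 2 windows, and Slc29a1 in 1 of 8. The other window of Slc20a1 holds GGAATG at 230, 198 and 96 bases upstream and TGACNNNGC at 165.
Slc25a15: ccccgccctgccgcaCACGTGccgcggctc
Slc29a1: gcagagcagcgccagCACGTGgcgcgcatg
A match of this kind describes letters and not binding. The antioxidant response pattern TGACNNNGC, searched on both strands, was found in 16 of the 62 genes (25.8%) against 14.0% of all genes in the table. GGAATG, the letters that TEAD factors read, was found in 12 (19.4%), the amino acid response pattern TGATGNAA in 3 (4.84%) and the AP-1 pattern TGANTCA in 2 (3.23%). Over all genes of the table these 3 patterns were found in 16.6%, 4.51% and 8.97%. All these shares count a gene when any of its windows matches. The genes of the table were not limited by signal, as the 62 were, and the number of windows per gene was not matched.

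Slc39a6 (Entrez gene 106957) encodes ZIP6, a zinc importer of the plasma membrane. Slc39a6 signals were 701, 730.1, 598 and 774 in confluent experiments 1 to 4 and 1186, 1216, 905 and 1192 in the subconfluent ones. The groups did not overlap, and experiment 3 was the lowest of both. Means were 701 ± 74.7 (SD, n = 4) and 1125 ± 147 (SD, n = 4). Slc39a6 rose by 0.64 on the log2 scale (SE 0.16, 1.56-fold, limma adjusted p = 0.0362), with differences of 0.72 in lot A and 0.75 in lot C and a limma adjusted p of 0.0413 with lot as a block. The call was kept without confluent 2 or subconfluent 3. It was lost on leaving out any 1 of the other 6 arrays (confluent 1, 3 or 4 and subconfluent 1, 2 or 4), with limma adjusted p from 0.0653 to 0.0966. With the experiment as a block its limma adjusted p was 0.00893.

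Slc25a11 (Entrez gene 67863) exchanges 2-oxoglutarate for malate across the inner mitochondrial membrane, a step of the malate-aspartate shuttle. Slc25a11 signals were 1329, 881, 759 and 918 in confluent experiments 1 to 4 and 589.5, 395, 614 and 554 in the subconfluent ones. All confluent arrays were above all subconfluent arrays, with confluent experiment 1 the highest. Means were 972 ± 248 (SD, n = 4) and 538 ± 98.4 (SD, n = 4). Slc25a11 fell, with a log2 difference of -0.79 (SE 0.20, 1.72-fold lower, limma adjusted p = 0.0414; 0.0127 with the experiment as a block). Its difference was -1.11 in lot A and -0.35 in lot C, and with lot as a block the limma adjusted p was 0.0736. The call held without confluent 2 (limma adjusted p = 0.0438) and was lost on leaving out any other array (0.0583 to 0.103). The 250 bases before its start (chr11:70647040-70647289, minus strand, GRCm38.p6) are shown as those of the Slc gene that fell. They hold TGATTCA, a form of TGANTCA, at 144 bases upstream, in capitals.
Slc25a11: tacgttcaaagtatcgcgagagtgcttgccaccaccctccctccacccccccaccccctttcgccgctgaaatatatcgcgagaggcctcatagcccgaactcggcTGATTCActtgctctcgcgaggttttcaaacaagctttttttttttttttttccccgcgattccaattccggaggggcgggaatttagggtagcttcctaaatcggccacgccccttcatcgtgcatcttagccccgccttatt
CACGTG was not found in this window, which says only that these letters are not there.

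**Figure D2:**
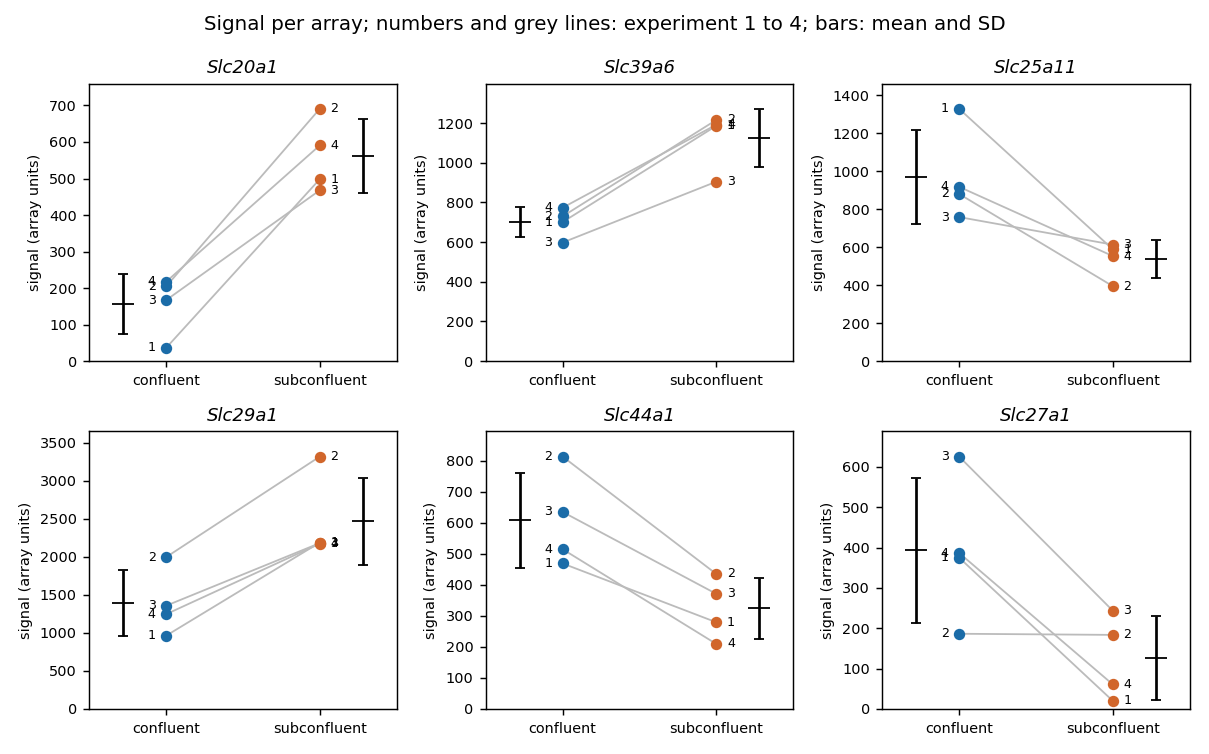
Signal in array units on each of the 8 arrays for the 3 Slc genes that passed the threshold and for Slc29a1, Slc44a1 and Slc27a1, which passed with the experiment as a block and not without a block. Numbers and grey lines join the confluent and subconfluent array of an experiment and bars give the mean and SD; groups overlap for Slc27a1 only, where experiment 2 read 186 and 183.

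Carriers of mitochondria and peroxisomes, the Slc25 family, were represented by 13 genes with a median log2 difference of -0.00. Their median absolute difference was 0.46, against 0.24 over the 75 Slc genes. Without the block 1 of them, Slc25a11, passed, or 7.69%, against 6.81% of all probe sets tested. With the experiment as a block 3 were higher and 3 lower, or 46.2%, against 21.2% of all. With the chip lot as a block 0 of the 13 passed in limma, where 11.4% of all probe sets did. At an unadjusted p under 0.05 without a block 3 were higher and 3 lower, where all probe sets gave 25.9%. These shares rest on 13 genes, and their difference from the whole array was not tested. The ornithine carrier Slc25a15, which serves the urea cycle and polyamine synthesis, gave 1229, 1351, 1940.3 and 2628 in confluent and 2553.5, 1494, 3303 and 5471 in subconfluent experiments 1 to 4. The groups overlapped widely, while the subconfluent array was the higher in each experiment. Slc25a15 differed by 0.74 (SE 0.36, limma adjusted p = 0.219, and 0.0167 with the block). Slc25a10, the dicarboxylate carrier, read 378, 522.5, 634 and 437 and then 756, 652, 829 and 669. Its groups did not overlap, and its difference was 0.53 (SE 0.18, limma adjusted p = 0.0885, 0.0322 with the block), at 0.91 in lot A and 0.22 in lot C. Slc25a25, a calcium-regulated carrier that exchanges ATP-Mg for phosphate, read 250.0, 180.4, 322 and 524 in confluent and 411, 419.7, 488 and 759.8 in subconfluent cells. Experiment 4 was the highest of both groups, and the difference was 0.67 (SE 0.28, limma adjusted p = 0.164, 0.0158 with the block).

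On the lower side, Slc25a20, which imports acylcarnitines for fatty acid oxidation, read 883, 477, 494 and 478 in confluent and 352.5, 313, 332 and 358 in subconfluent experiments. The subconfluent arrays lay close together, below all confluent arrays, and confluent experiment 1 stood well above the other 3. Its difference was -0.66 (SE 0.20, limma adjusted p = 0.0700, 0.0256 with the block), at -1.21 in lot A and -0.46 in lot C. Slc25a36, a carrier of pyrimidine nucleotides, read 1249, 733, 818 and 694 and then 679.5, 591, 501 and 599. Its groups did not overlap, and its difference was -0.49 (limma adjusted p = 0.139, 0.0456 with the block). The ADP/ATP exchanger Slc25a4 had means of 11174 ± 1212 (SD, n = 4) and 11372 ± 1351 (SD, n = 4), a difference of 0.02 that was smaller than the spread within either group. Slc25a5, another ADP/ATP exchanger, differed by 0.46 (limma adjusted p = 0.175); the suffix of its probe set marks probes shared with similar transcripts. Slc25a17, a carrier of peroxisomes, was at 0.28. Slc25a1, a28, a39 and a51, carriers of citrate, iron, glutathione and NAD, lay between -0.14 and -0.00.

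Amino acid carriers were represented by 13 genes, 7 with a positive and 6 with a negative difference and a median of 0.01. In limma 0 passed without the block, where 1 was higher and 2 were lower at an unadjusted p under 0.05, and the same numbers passed with it. With the block that is 23.1%, against 21.2% of all probe sets tested. At an unadjusted p under 0.05 all probe sets gave 25.9%. Slc7a5, known as LAT1, read 1041, 2313, 2247 and 2122 in confluent and 2642, 3172, 3825 and 2560.5 in subconfluent experiments 1 to 4. Confluent experiment 1 was the lowest array, and the groups did not overlap. Slc7a5 differed by 0.69 (SE 0.25, 1.62-fold, limma adjusted p = 0.113, and 0.0243 with the block). Its difference was 1.30 in lot A and 0.47 in lot C. Its heavy chain Slc3a2, also called CD98, read 5999, 5181, 4529 and 4869 and then 6486, 7274, 4029 and 6819.9. Here the groups overlapped, experiment 3 went the other way, and the difference was 0.23 (SE 0.20, limma adjusted p = 0.513, 0.273 with the block). Slc7a6, another light chain that binds Slc3a2, read 151, 149.7, 164 and 252 in confluent and 372, 182, 292 and 238 in subconfluent cells. The groups overlapped, and Slc7a6 differed by 0.47 (limma adjusted p = 0.225, 0.157 with the block).

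The sodium-coupled carrier Slc38a2, known as SNAT2, read 4144.5, 2682, 2679.5 and 2459.6 in confluent and 2468, 1663, 1825 and 1797.5 in subconfluent experiments. Confluent experiment 1 stood apart, and the only overlap was between subconfluent experiment 1 and confluent experiment 4. Slc38a2 differed by -0.60 (SE 0.20, 1.51-fold lower, limma adjusted p = 0.0883, 0.0104 with the experiment as a block and 0.0433 with the lot as a block). Slc38a10, of the same family, read 1708, 1315, 1652 and 1266 and then 926, 654, 1230.2 and 1018, with no overlap between groups. Its difference was -0.63 (SE 0.20, limma adjusted p = 0.0808, 0.0210 with the experiment and 0.0489 with the lot as a block). Slc1a5, the glutamine exchanger ASCT2, had means of 243 ± 16.5 (SD, n = 4) and 239 ± 27.9 (SD, n = 4), a difference of -0.02. Slc6a6, the taurine carrier, differed by 0.24 (limma adjusted p = 0.484). The remaining 6 genes, Slc1a4, Slc6a8, Slc6a9, Slc6a13, Slc7a2 and Slc38a5, lay between -0.32 and 0.14.

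**Figure D3:**
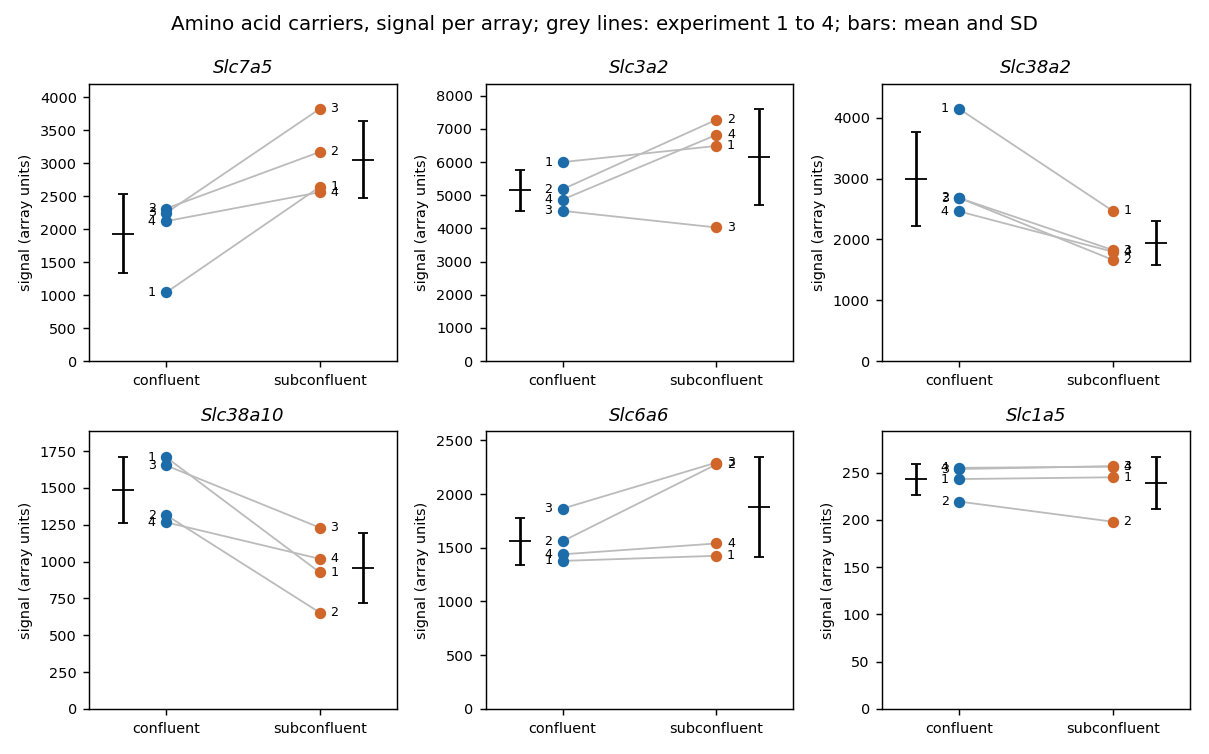
Signal in array units of 6 amino acid carriers on the 8 arrays, with numbers and grey lines for experiments 1 to 4 and bars for the mean and SD of 4 arrays. Slc7a5 is higher and Slc38a2 and Slc38a10 are lower in the subconfluent array of each experiment, Slc3a2 is higher in 3 of 4, and Slc1a5 has means of 243 and 239.

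Among carriers of inorganic ions and pH there were 9 genes, with a median difference of -0.29 (-0.33 within lot A and -0.30 within lot C). Slc20a1 was the gene that passed; 5 of the 9 were negative, and these 5 were lower in all 4 experiments, as were 1101 of all 4670 genes tested. Slc8a1, the sodium-calcium exchanger, read 523, 157, 162.5 and 296 in confluent and 166, 94.0, 78.6 and 137 in subconfluent cells. The groups overlapped because confluent experiments 2 and 3 lay below subconfluent experiment 1. Slc8a1 differed by -0.89 (SE 0.33, limma adjusted p = 0.120, 0.0196 with the block), and its subconfluent mean was under 200. Slc12a7, a potassium-chloride cotransporter, read 597, 412, 749 and 647 and then 387.5, 247, 473 and 542. The groups overlapped, and the difference was -0.51 (limma adjusted p = 0.207, 0.0292 with the block). The anion exchangers Slc4a2 and Slc4a3 and the sodium-proton exchanger Slc9a8 were at -0.29, -0.31 and -0.33. The sodium-potassium-chloride cotransporter Slc12a2 differed by 0.24 (limma adjusted p = 0.455), Slc41a1, a magnesium carrier, by 0.10, and Slc12a4 by 0.06.

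Metal carriers gave 10 genes with a median of -0.13, of which Slc39a6 passed. The zinc importers of the Slc39 family did not share a direction: Slc39a7 of the secretory pathway was at 0.11, Slc39a4 at -0.39 (limma adjusted p = 0.258) and Slc39a1 at -0.54. Slc39a1 read 1405, 7029.7, 5411 and 3575 in confluent and 1381, 5756.5, 3917 and 1324 in subconfluent experiments. Its arrays ranged widely within each group, with experiment 1 low and experiment 2 high in both. The SD within groups was 1.03 on the log2 scale, against a median of 0.27 over the 75 genes, and the difference had an SE of 0.55 (limma adjusted p = 0.592). The zinc exporters Slc30a3, Slc30a4, Slc30a5 and Slc30a9 were all negative, from -0.38 to -0.01, and 0 passed in limma with or without the block, or at an unadjusted p under 0.05. Within lot A only 1 of the 4 kept this sign, and the other probe set of Slc30a5 was at 0.03. Slc39a4 read 1551, 1741, 1176 and 1058 in confluent and 1343, 1042, 841 and 936 in subconfluent cells, with overlap of the groups. Slc31a1, the copper importer, was at -0.18, and Slc11a2, the iron importer DMT1, at 0.17.

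Carriers of nucleosides and of nucleotide sugars gave 9 genes, 5 positive and 4 negative, with a median of 0.08. Slc29a1, the nucleoside carrier ENT1, read 963, 1996, 1357 and 1245 in confluent and 2188, 3318, 2180.0 and 2173 in subconfluent experiments 1 to 4. No confluent array reached a subconfluent one, and experiment 2 was the highest of both groups. Slc29a1 differed by 0.83 (SE 0.23, 1.77-fold, limma adjusted p = 0.0532, 0.00491 with the experiment and 0.0479 with the lot as a block). It passed without confluent experiment 2 (limma adjusted p = 0.0186). Leaving out that array raised the calls over all probe sets too, from 165 to 342 higher and from 244 to 345 lower. Slc35b2 brings the sulfate donor PAPS into the Golgi for the sulfation of glycans. Slc35b2 read 1873, 1184, 1596 and 1111 and then 1047, 773, 1069 and 987. The groups did not overlap, and the difference was -0.53 (limma adjusted p = 0.116, 0.0298 with the experiment and 0.0372 with the lot as a block). Slc35e4, whose substrate is not assigned here, read 337, 260.3, 305 and 309 in confluent and 586, 593, 355 and 437 in subconfluent cells. Its groups did not overlap either, and its difference was 0.60 (SE 0.19, limma adjusted p = 0.0739, 0.0365 with the block). The other 6 Slc35 genes lay between -0.09 and 0.21.

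The 14 carriers of vitamins, lipids and organic ions had a median of -0.03, with 5 positive and 9 negative. In limma 0 passed without the block, with 1 higher and 3 lower at an unadjusted p under 0.05 and 1 higher and 3 lower with the block. With the block that is 28.6%, against 21.2% of all probe sets tested. At an unadjusted p under 0.05 all probe sets gave 25.9%. Slc19a1, the reduced folate carrier, read 393, 972, 660.0 and 772 in confluent and 1343, 1125, 1039.6 and 1238 in subconfluent experiments. Confluent experiment 1 was the lowest array, and the groups did not overlap. Slc19a1 differed by 0.78 (SE 0.23, limma adjusted p = 0.0681, 0.0333 with the experiment and 0.0268 with the lot as a block), and its other probe set by 0.38. Slc5a6, which carries biotin and pantothenate, differed by 0.44 (limma adjusted p = 0.270). Of the 3 Slc44 genes tested, the choline carriers Slc44a1 and Slc44a2 were lower in all 4 experiments, and Slc44a4 was at 0.15. Slc44a1 read 469, 813, 635 and 515 in confluent and 279, 435, 371 and 209 in subconfluent cells, with no overlap. Its difference was -0.83 (SE 0.23, 1.78-fold lower, limma adjusted p = 0.0547, 0.00595 with the experiment and 0.0756 with the lot as a block). Slc44a2 read 529, 314, 471 and 503 and then 310.1, 202, 296 and 449. These groups overlapped, and the difference was -0.49 (limma adjusted p = 0.209, 0.0478 with the block).

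Slc27a1, the fatty acid transport protein FATP1, had the largest negative difference among the 75 genes. It read 375, 186, 625 and 386 in confluent and 20.0, 183, 243.5 and 60.7 in subconfluent experiments. The groups overlapped, since confluent experiment 2 lay below subconfluent experiment 3, and experiment 2 was nearly the same in both, while subconfluent experiment 1 was near the bottom of the scale. Slc27a1 differed by -1.45 (SE 0.45, 2.73-fold lower, limma adjusted p = 0.0745, 0.0247 with the experiment and 0.0236 with the lot as a block). Its subconfluent mean was 127, below the minimum, and it passed without confluent experiment 2 (limma adjusted p = 0.0407). That omission raised the number of calls over all probe sets as well. Slc27a4, of the same family, was at -0.04. Slc22a17, a receptor for lipocalin-2, read 398, 301, 549 and 293.5 and then 116, 297, 201.5 and 331. The groups overlapped, and the difference of -0.64 did not pass with the experiment as a block (limma adjusted p = 0.138). With the lot as a block Slc22a17 was at -1.16 (limma adjusted p = 0.0271). That value does not draw on confluent experiments 2 and 4 or subconfluent experiment 2. The ascorbate carrier Slc23a2 and the heme carrier Slc48a1 were at -0.11 and -0.02. Slc10a3, Slc22a12, Slc22a18, Slc23a3 and Slc44a4 lay between -0.31 and 0.25.

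Sugar carriers gave 4 genes. Slc2a1, the main glucose carrier of endothelial cells, read 373.5, 433, 358 and 499 in confluent and 504.5, 372.5, 376 and 633 in subconfluent experiments. The groups overlapped throughout, and the difference was 0.14 (limma adjusted p = 0.696). Slc50a1, a sugar carrier of the SWEET family, read 935, 561, 803 and 745 and then 491, 284, 600.1 and 518. It was lower in all 4 experiments with overlap of the groups, at -0.65 (SE 0.23, limma adjusted p = 0.0995, 0.0143 with the block). Slc2a8, a glucose carrier of internal membranes, read 559, 366, 530.4 and 580.2 in confluent and 385, 479, 385 and 354 in subconfluent cells, with overlap. It was at -0.30 (limma adjusted p = 0.321), and Slc37a4, which carries glucose 6-phosphate, at -0.01. A further 2 symbols name proteins that are no carriers. Slc9a3r1, the scaffold NHERF1 that binds the sodium-proton exchanger, read 9764, 7035, 9864 and 8942 in confluent and 5843, 2529, 7845 and 6008.5 in subconfluent cells. Confluent experiment 2 lay below subconfluent experiment 3, and the other confluent arrays were above all subconfluent ones. Slc9a3r1 differed by -0.77 (SE 0.29, limma adjusted p = 0.128, 0.0162 with the block). Slc4a1ap read 309, 244, 368 and 285 and then 296, 307, 347 and 379.9, and was at 0.13 (limma adjusted p = 0.690). Slc66a2, whose substrate is not assigned here, read 928, 640.1, 657 and 746 and then 847, 692.5, 759 and 648, and was at -0.00 (limma adjusted p = 0.993). The groups of both overlapped.

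**Figure D4:**
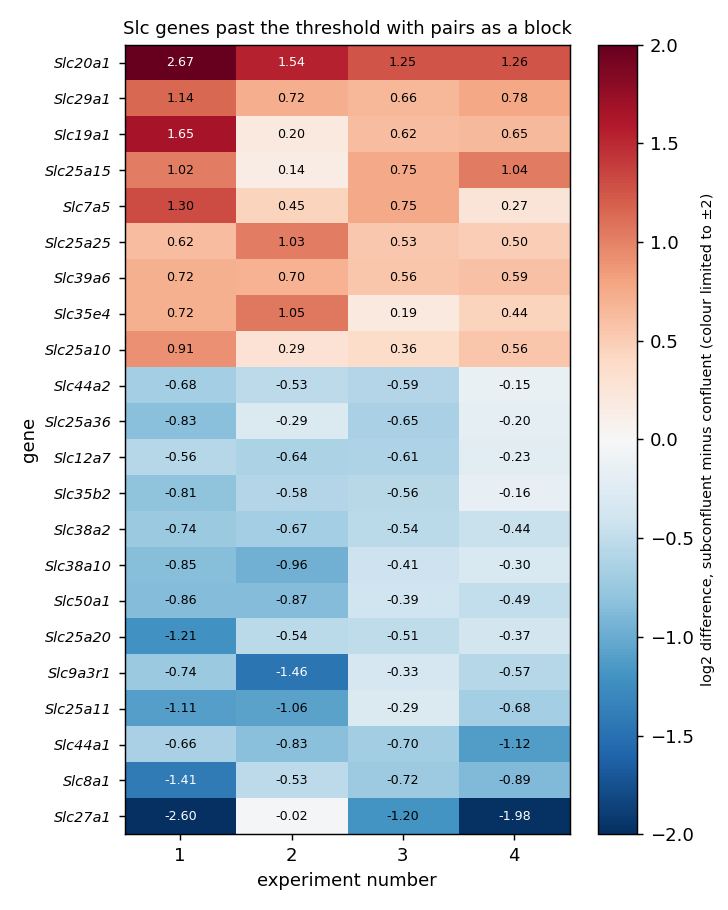
Log2 difference, subconfluent minus confluent, within each of experiments 1 to 4 for the 22 Slc genes past the threshold with the experiment as a block; colour follows the number in each cell and is limited to 2 in either direction. Each gene keeps 1 sign over the 4 experiments, and experiment 2 of Slc27a1, at -0.02, is the cell nearest to 0.

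Experiment 1 alone gave the same sign as the fit for 57 of the 75 genes within chip lot A, 76.0%, against 84.6% of all genes tested. Within lot C, 55 of 75 did, 73.3%, against 81.7%. The arrays of both lots are also part of the fit, so some of this agreement was built in. Of the 9 genes with a further tested probe set, the probe sets of 6 had the same sign. Those of Slc11a2, Slc30a5 and Slc35e1 did not, and none of these probe sets passed. Some members also had probe sets below the minimum, which are left out of this comparison and can be far dimmer. The means of the brightest and of the dimmer probe set were 3725 and 89.8 for Slc39a1, 1211 and 93.2 for Slc39a4, and 1652 and 27.9 for Slc30a3. Just inside the minimum lay Slc8a1 at a mean of 201.8, Slc37a4 at 209.8 and Slc30a9 at 211. Just outside lay Slc6a20b at 196, Slc10a6 at 194 and Slc39a9 at 186. A confluent mean under 200 was found for 2 genes, Slc7a6 and Slc20a1, and a subconfluent mean under 200 for 3, Slc8a1, Slc30a9 and Slc27a1, which were tested because of their level in the other group.

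Transporters with other names, and the pumps and chaperones that solute carriers depend on, gave 23 tested genes of 56 listed. Of these 1 rose and 2 fell, 13.0% against 6.81% of all probe sets, and with the block 3 were higher and 5 lower, 34.8% against 21.2%. Their median difference was -0.30. Abca1, which exports cholesterol and phospholipid to apolipoproteins, read 2139, 655, 891 and 1518 in confluent and 242, 26.0, 125 and 373 in subconfluent experiments. The groups did not overlap, and experiment 2 was the lowest of both. Abca1 fell, with a difference of -2.61 (SE 0.50, 6.10-fold lower, limma adjusted p = 0.0167), and kept the call on leaving out any 1 array. Cp, the ferroxidase ceruloplasmin that loads exported iron onto transferrin, read 1529, 413, 588 and 735 and then 203, 18.4, 162 and 92.8. Its groups did not overlap, and it fell, at -2.36 (SE 0.44, 5.14-fold lower, limma adjusted p = 0.0162), also without any 1 array. Abcb1b, a drug efflux pump, read 123, 207, 217 and 199 in confluent and 481, 361, 388 and 455 in subconfluent cells, with no overlap. It rose by 1.01 (SE 0.19, 2.01-fold, limma adjusted p = 0.0165), a call that was lost without subconfluent experiment 4 (0.0524). Each of these 3 genes had a group mean under 200 (187 for Abcb1b in confluent, 192 for Abca1 and 119 for Cp in subconfluent cells) and was tested because of its level in the other group, so the count of 3 is a description. Abcc3, an exporter of organic anions, had means of 309 and 130 and differed by -1.04 (limma adjusted p = 0.0890, 0.0290 with the block). Bsg, the chaperone of monocarboxylate carriers, was at -0.10, and Atp1b1 and Atp1b3, subunits of the sodium pump that drives sodium-coupled uptake, at -0.18 and 0.19. Tfrc, the transferrin receptor, differed by 0.80 and Ank, which exports pyrophosphate, by 0.71; neither passed without a block, and both did with the experiment as a block (limma adjusted p = 0.00580 and 0.0223). Tfrc also passed with the lot as a block (limma adjusted p = 0.0456), and Ank did not (0.369). In the other direction, Abcg1 differed by -1.13 and Abca2 by -0.61. Neither passed without a block, and both did with the experiment as a block (limma adjusted p = 0.0482 and 0.0213). With the lot as a block Abcg1 passed (limma adjusted p = 0.0147), and Abca2 did not (0.197). The 4 fibroblast and pericyte markers that fell did so in the same samples as Abca1 and Cp, and their part in these differences was not tested.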

How the data were processed

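Signals were measured on 8 Affymetrix arrays of mouse aortic endothelial cells, 4 confluent and 4 subconfluent. Per the labels, the deposited signal values come from Affymetrix's statistical algorithm, with each array scaled to 500. Its software version is not given in the sources used here. Control probe sets (66 of 12488) were left out. The annotation gave 1 symbol for 10833 of the others, several for 396 and none for 1193; all 75 Slc genes matched the RefSeq gene table and 0 symbols changed. A mean of at least 200 was required, and log2(signal + 50) was tested with limma 3.58.1 in R 4.3.3 (lmFit, eBayes with a trend, two-sided), adjusted by Benjamini-Hochberg over all 6007, with a threshold of 0.05. The pseudocount shrinks folds of low genes. Tables and plots used Python 3.11.15, pandas 2.3.3, numpy 2.4.6 and matplotlib 3.10.9. The fit without a block was tested on simulated data with independent arrays. The fits with a block were not, and neither pairs nor lots were simulated. The number of arrays limits the precision.

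Same-numbered samples deviated together from their group means (correlations 0.486, 0.357, 0.516 and 0.348, against at most 0.0681 for other pairs), and were treated as pairs where the block is named. Chip lots came from the labels. Named by rule were the Slc genes past the threshold, the 10 with the largest differences in each direction and the 2 with the smallest p in each class; of the transport partners, those past the threshold and the 4 with the smallest p. Slc12a7, Slc25a36, Slc35b2 and Slc44a2 (past the threshold with the block), and Slc2a1, Slc3a2 and Slc39a1 were added after their values were seen. So were the partners Bsg, Atp1b1, Atp1b3, Tfrc, Ank, Abca2 and Abcg1. Substrate classes follow the family numbers. Members, classes, lists and motifs were chosen with earlier results of these data known.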

Additional observations from a re-analysis of the deposited data

Results flagged for a closer look

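In 6 of 48 groups of 4 arrays, 1 array stood apart from the other 3 by Dixon's criterion, which sets its gap to the nearest array against the group's range; chance alone gives about 1 such group in 20. In 3 of them it was confluent experiment 1, which was high for Slc25a20 (883 signal units) and Slc38a2 (4144.5) and low for Slc7a5 (1041). The others were subconfluent experiment 2 for Slc29a1, at 3318, subconfluent experiment 3 for Slc39a6, at 905, and confluent experiment 4 for Slc7a6, at 252.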

How the results depend on the processing

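All counts are subconfluent higher, then lower, at a limma adjusted p under 0.05. Without the block they were 165 and 244 over all probe sets, 2 and 1 among Slc probe sets and 1 and 2 among transport partners. With the replicate number as a block they were 597 and 679, 9 and 13, and 3 and 5. With array weights all probe sets gave 311 and 331 and Slc 4 and 3. With chip lot as a fixed block the counts were 368 and 315, 4 and 5, and 2 and 3; as a random block, 453 and 485, 5 and 8, and 1 and 3. Without the signal minimum they were 72 and 136, and 1 and 0 for Slc; with a minimum of 500, partners gave 0 and 1. With the scale factor as a covariate Slc gave 3 and 2, and with probe sets averaged per gene 3 and 2. Within chip lot C, with 3 arrays, they were 2 and 3, 0 and 0, and 0 and 0. On leaving out 1 array the ranges were 18 to 342 and 80 to 345 over all, 0 to 4 and 0 to 2 for Slc, and 0 to 1 and 2 to 3 for partners. With the block and without experiment 1, 2, 3 or 4 they were 258, 652, 223 and 237 higher and 353, 618, 367 and 413 lower over all, 3, 8, 3 and 4 higher and 2, 10, 5 and 7 lower for Slc, and 2, 2, 3 and 2 higher and 3, 5, 3 and 3 lower for partners. Other pseudocounts, median centring, quantile normalization and no variance trend left the Slc counts at 2 and 1, and the same 3 genes passed.

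Of the 24 Slc genes named by rule, signs turned for 2 that did not pass. Slc4a1ap was at -0.033 with lot as a block and -0.018 within lot C. Slc66a2 was at 0.023 with median centring, 0.0095 with quantile normalization, 0.088 within lot C, -0.069 to 0.10 without 1 array (positive without confluent 1 or 4 or subconfluent 2 or 4), and 0.036 and 0.058 with the block and without experiment 1 or 4. Over all 75 genes more signs turned: 67 kept theirs with median centring and 61 with lot as a block. The array number limits all of these values.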

Other observations

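Of the 101 Slc probe sets under a mean of 200, 27 had a mean of at least 100. In a limma fit without the minimum 0 of the 101 passed, where 1.67% of all 12422 probe sets did. An unadjusted p under 0.05 was found for 7 of the 101. The share of all probe sets at that unadjusted p in this fit is not given, so the 7 is a description. Slc1a2, a glutamate carrier, chosen here after its values were seen, had means of 69.4 in confluent and 197 in subconfluent cells with no overlap of the groups. The lactate carrier Slc16a1 and the glucose carrier Slc2a3 were also below the minimum, with means over all arrays of 168 and 162.

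The scale factors of the labels were 5.58, 8.99, 7.35 and 3.56 for confluent experiments 1 to 4 and 4.39, 13.3, 8.19 and 3.05 for subconfluent ones. Slc39a1, whose arrays differed more by experiment than by group, was highest in experiment 2 of both groups, the experiment with the largest scale factor in both; whether the 2 are related was not tested.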
